A study of Homo sapiens with 30 samples.

Results

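The alpha-globin locus was followed through 30 CUT&Tag libraries of K562 cells as the interval chr16:120000-235000 of hg19, which is 115.001 kb long. Its members were 5 globin genes, HBZ, HBM, HBA2, HBA1 and HBQ1, chosen because they form the alpha-globin cluster, and the distal enhancer HS-40 was set beside them. Each of these 6 positions was given a window of 1 kb on either side. Of 195094 SEACR peaks in the 25 H3K27ac lists, 158 overlapped the interval. Of 392838 SEACR peaks in the 5 H3K27me3 lists, 1 did, and of 157073 peaks in the 6 MACS2 lists, 53 did.

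The cluster encodes the alpha-like chains of haemoglobin, and its genes are expressed in a developmental order. HBZ encodes the embryonic zeta chain, and HBA2 and HBA1 encode the same alpha chain of fetal and adult haemoglobin. HBM is the mu-globin gene and HBQ1 the theta-globin gene, whose chain has an uncertain role. Transcription of these genes in erythroid cells depends on distal enhancers in introns of the neighbouring gene NPRL3, of which HS-40 is the strongest, and NPRL3 itself encodes a subunit of the GATOR1 complex that restrains mTORC1. H3K27ac marks active promoters and enhancers, and H3K27me3 marks chromatin repressed by Polycomb. K562 is an established human chronic myeloid leukaemia line that can make embryonic and fetal globins.

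In CUT&Tag an antibody on chromatin directs a transposase that cuts and tags the adjoining DNA. Each experiment used 500000 K562 cells. Trichostatin A (TSA), a histone deacetylase inhibitor, was present in 4 H3K27ac libraries made at 15 PCR cycles with SDS extraction: Abcam-ab177178 at 1/100, Abcam-ab4729 at 1/100, and Diagenode C15410196 at 1/100 and at 1/50. Their untreated counterparts used the same antibodies, dilutions, extraction and cycle number, and a library with Active Motif 39133 at 1/100 completed the 5 untreated H3K27ac libraries at 15 cycles. A further 16 untreated H3K27ac libraries crossed the 4 antibodies, Diagenode at 1/50 and the others at 1/100, with column or SDS extraction and with 13 or 11 cycles. The H3K27me3 antibody CST9733 at 1/100 was used untreated, once in each of the 5 protocols (SDS at 11, 13 and 15 cycles, column at 11 and 13 cycles). Each condition had 1 library, so no single value below has a replicate error.

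The promoters shown are those for which a sequence was at hand among the 5 genes and the gene that holds the enhancers. They are the 250 bases before the start from RefSeq on GRCh38.p14, 5′ to 3′ on the gene's strand. Capitals mark GATAA (or TTATC), the core bound by GATA factors, TATAA (or TTATA) and CCAAT (or ATTGG), each searched on both strands. These positions are on another build than the hg19 peak positions and were not converted.

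HBM, chr16:165728-165977, plus strand: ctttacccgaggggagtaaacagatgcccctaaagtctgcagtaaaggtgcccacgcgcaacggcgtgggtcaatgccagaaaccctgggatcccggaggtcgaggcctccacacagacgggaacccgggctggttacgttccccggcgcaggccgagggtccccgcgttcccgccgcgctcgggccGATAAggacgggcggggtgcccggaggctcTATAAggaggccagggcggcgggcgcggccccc

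NPRL3, chr16:138674-138923, minus strand: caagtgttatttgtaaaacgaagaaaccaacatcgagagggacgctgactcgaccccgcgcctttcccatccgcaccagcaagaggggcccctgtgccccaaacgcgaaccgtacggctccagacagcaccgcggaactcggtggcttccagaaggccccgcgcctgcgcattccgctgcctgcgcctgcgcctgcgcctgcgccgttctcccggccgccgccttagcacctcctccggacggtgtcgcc

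The HBM promoter holds GATAA 63 bases and TATAA 33 bases before the start and no CCAAT. The NPRL3 window holds none of the 3 motifs. Among 35116 RefSeq promoter windows of the same length, 20.4% hold GATAA, 18.9% hold TATAA and 32.0% hold CCAAT on either strand. Both windows are rich in CpG, with 27 CpG in HBM and 29 in NPRL3 against a median of 11, which places them at percentiles 84.1 and 87.6. The GC content is 69.2% in HBM and 66.4% in NPRL3.

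The H3K27ac lists held 3024 to 22808 SEACR peaks each on chromosomes 1 to 22 and X. The labels describe the libraries of 11 and 13 cycles as downsampled before peak calling, while the depth behind the 15-cycle lists is unknown. One H3K27me3 library stood apart, that from column extraction at 11 cycles. In it 5.48% of peaks overlapped a peak of the 16 downsampled H3K27ac lists, against 2.80% to 3.56% in the other 4 H3K27me3 lists. Signal carries no correction for the copy number of the locus in K562. A peak list gives no value where no peak was called, so a window without a peak is not a measured zero.

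H3K27ac peaks lay in the locus in 25 of 25 lists, with 1 peak in the poorest list, a median of 6 and 11 in the richest. They covered from 0.738% to 29.6% of the interval, with a median of 5.59%. The highest value came from untreated ab4729 at 15 cycles and the lowest from Diagenode with column extraction at 13 cycles. The covered share of the locus exceeded the share of chromosomes 1 to 22 and X covered by the same list in 25 of 25 lists, by 6.61-fold to 38.3-fold, with a median of 20.6-fold. This share counts peaks anywhere in the interval, not only at globin genes. With column extraction at 13 cycles the ratio was 23.5-fold for Active Motif and 6.61-fold for Diagenode, with 0 of the 6 windows marked. Other gene-rich intervals were not compared, so the excess is not shown to be particular to this locus. The median peak width inside the locus ranged from 618 bp in TSA-treated ab177178 to 3055 bp in untreated ab4729.

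**Figure D1:**
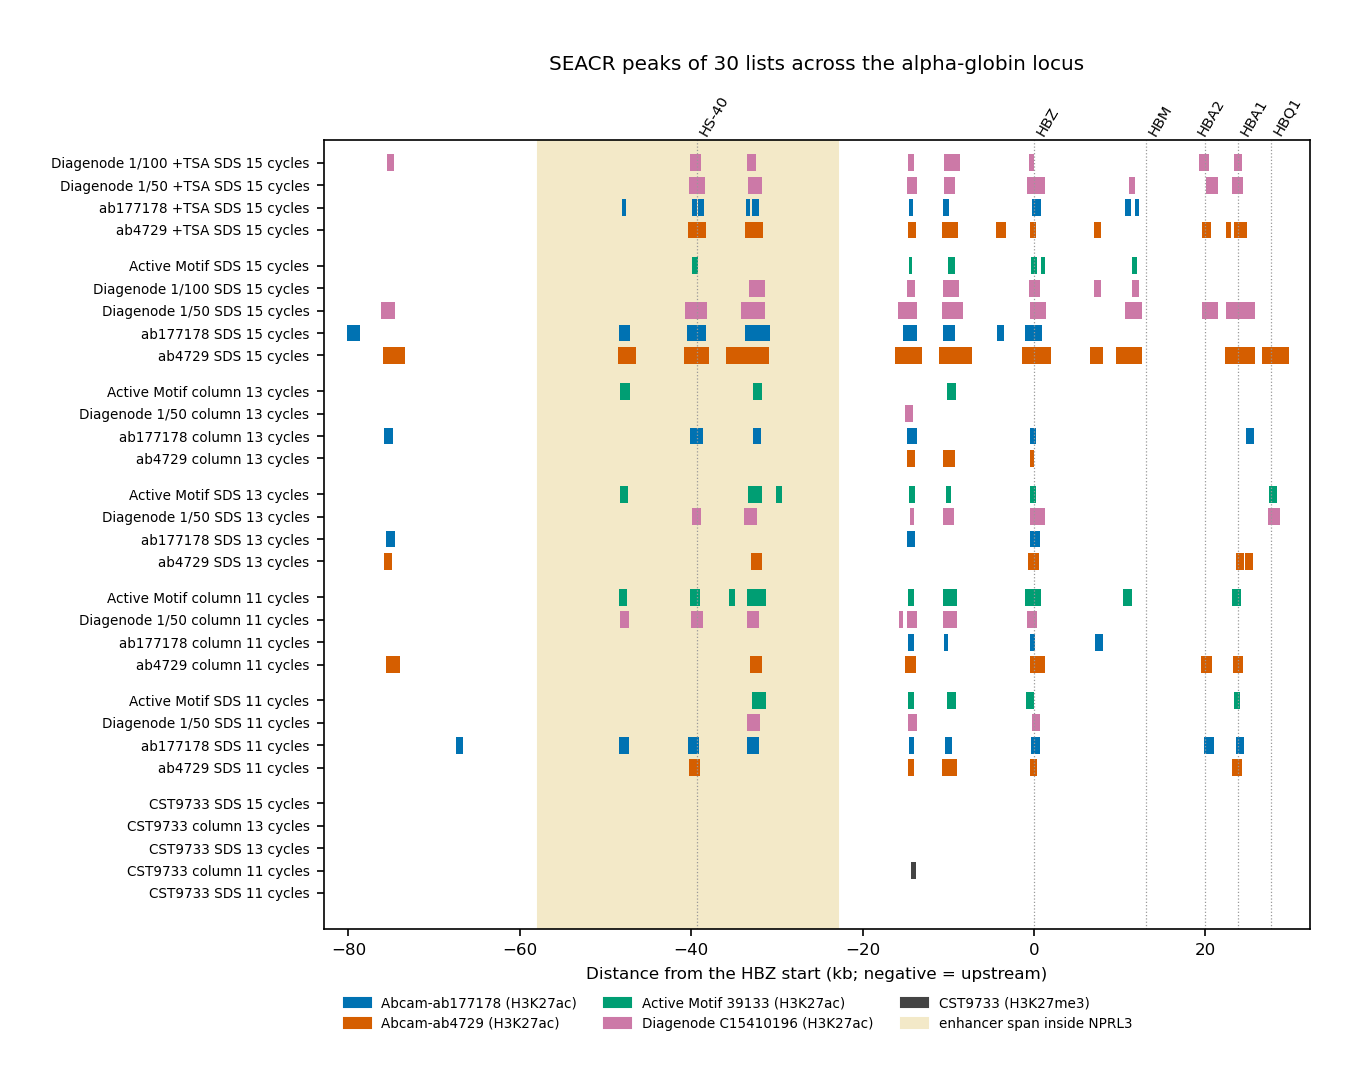
SEACR peaks of the 30 lists along the locus, 1 row per list, drawn to scale against distance from the HBZ start in kb; colours give the antibody and the shaded band the enhancer span inside NPRL3. H3K27ac peaks of 25 lists line up at a few positions, and the 5 H3K27me3 rows at the bottom hold 1 peak.

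The H3K27ac peaks recurred at a small number of places. Bases covered in at least 5 of the 25 lists, with stretches under 500 bp apart joined, formed 10 regions, a definition chosen after the data had been seen. These regions took in 143 of the 158 peaks. That share follows in part from the definition, because the same peaks built the regions. Counted upstream of the HBZ start, the first 6 regions were centred at 75.2, 47.8, 39.3, 32.5, 14.3 and 9.76 kb. The other 4 lay at the HBZ start itself and 11.6, 20.2 and 23.9 kb downstream of it.

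**Figure D2:**
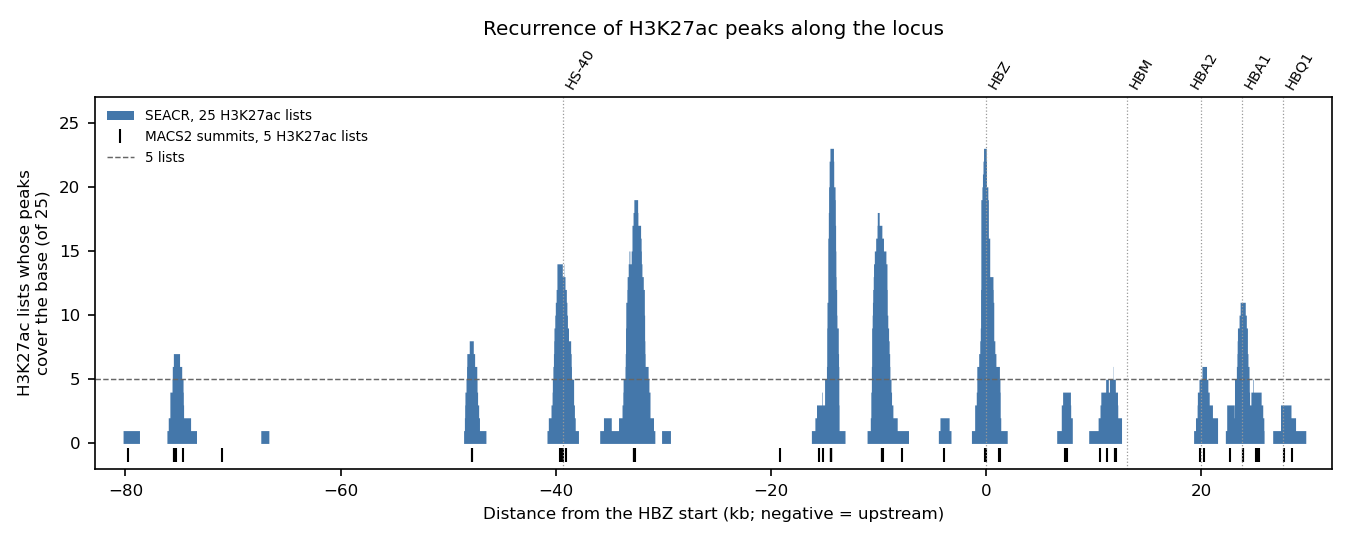
Number of the 25 H3K27ac lists whose SEACR peaks cover each base, against distance from the HBZ start in kb, with MACS2 summits of 5 lists as ticks below and the requirement of 5 lists as a dashed line. Both highest columns, at 23 lists, stand 14.3 kb upstream of HBZ and at the HBZ start.

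HS-40 carried an H3K27ac peak in 14 of 25 lists and an H3K27me3 peak in 0 of 5. For scale, 4.47% of 2 kb bins over chromosomes 1 to 22 and X held an H3K27ac peak in at least 1 of the 25 lists, and 0.506% did so in at least 13. The same bins held an H3K27me3 peak in at least 1 of 5 lists in 12.5% of cases. The strongest H3K27ac peak at HS-40 was between 661 and 2904 bp wide, with a median of 1371.5 bp. Its rank, by the total signal that SEACR gives each peak, ran from 682 of 6301 peaks in TSA-treated Diagenode at 1/50 to 5598 of 5780 in ab4729 with SDS at 11 cycles. As a percentile within the list, where 100 is the strongest peak, these ranks spanned 3.17 to 94.2 with a median of 66.2. The highest, 94.2, belonged to untreated ab177178 at 15 cycles, where HS-40 held the strongest peak of the locus.

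The highest point of the HS-40 peaks lay less than 1 kb from the HS-40 position of 163500. Over 15 SEACR peaks of 14 lists it lay between 163048 and 163766, with a median of 163478. MACS2 summits of 4 lists lay between 163277 and 163766, with a median of 163512. The bins of 2 kb with a MACS2 peak in at least 1 of the 5 H3K27ac lists made up 2.59% of the genome span.

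A neighbouring stretch inside the NPRL3 enhancer span was called more often than HS-40. This region, chr16:169112-171502, centred 32.5 kb upstream of HBZ, held an H3K27ac peak in 19 of 25 lists. Its peaks were 805 to 5009 bp wide with a median of 1507 bp, and their rank percentiles ran from 29.4 to 94.1 with a median of 77.8. A region farther from the genes, chr16:154506-155544, held a peak in 8 lists, at percentiles of 2.91 to 62.2 with a median of 35.8. Outside the span, the region farthest from the genes, chr16:127192-128201, held a peak in 7 lists, at percentiles of 5.02 to 58.1 with a median of 29.2. Over the whole enhancer span from 145000 to 180000, 21 of 25 lists held at least 1 peak. The 4 lists without one were ab177178 with column extraction at 11 cycles, ab177178 with SDS at 13 cycles, and ab4729 and Diagenode with column extraction at 13 cycles. Peaks covered a median of 6.54% of this span (range 0% to 28.5%), and a median of 6.19% of the 33.147 kb from 1 kb before HBZ to the end of the interval (0% to 42.4%). The enhancer span had the higher share in 9 of 25 lists.

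Between the enhancer span and HBZ stood the H3K27ac peak that was most often the tallest of the locus. The region chr16:187848-189164, centred 14.3 kb upstream of HBZ, held a peak in 23 of 25 lists. Bins of 2 kb with an H3K27ac peak in at least 20 of the 25 lists made up 0.175% of all bins. The 2 lists without a peak there were ab4729 with SDS at 13 cycles and Active Motif with column extraction at 13 cycles. Its median width was 858 bp (409 to 3129 bp), the second narrowest of the 10 medians after the region 11.6 kb downstream of HBZ, at 771 bp. The highest points of its 23 peaks lay between 188411 and 188602.

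By total signal this region was one of several strong ones, and by peak height it led. Its rank percentile by total signal had a median of 78.2 (25.2 to 93.9). By the maximum signal inside the peak, its percentile had a median of 97.4 (23.1 to 99.5). It was the strongest peak of the locus by total signal in 12 of 25 lists and the tallest by maximum signal in 20 of 25. In the GRCh38 gene order, NPRL3 on the minus strand is the last protein-coding gene before HBZ, with a long noncoding RNA and a pseudogene between them. No hg19 start of NPRL3 was at hand, so the region was not assigned to a gene. Whether it holds the NPRL3 promoter was not tested. The next region toward HBZ, chr16:192187-194001, held a peak in 19 lists, with a median width of 1385 bp and a median percentile of 69.3 by total signal and 54.9 by maximum signal.

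**Figure D3:**
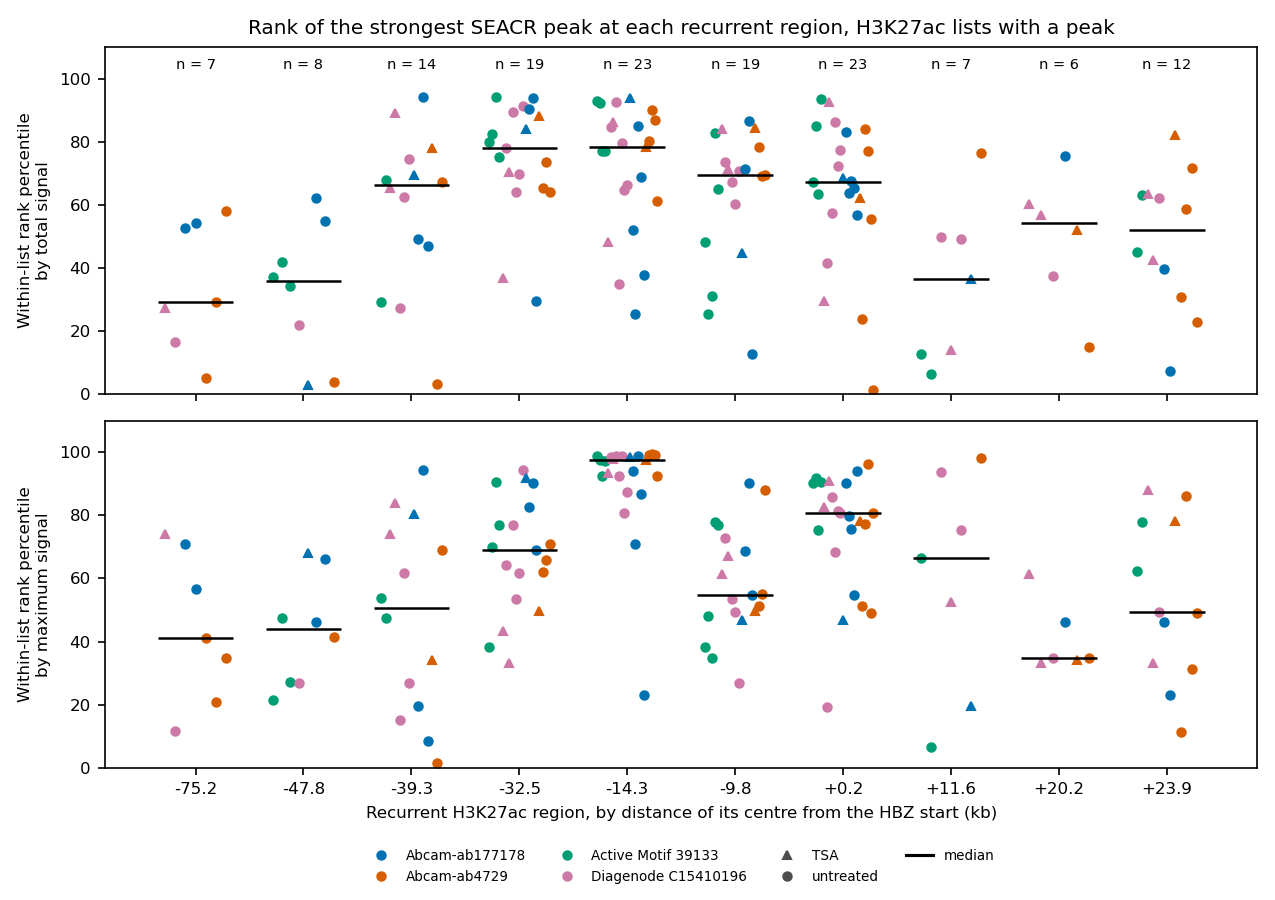
Within-list rank percentile of the strongest H3K27ac SEACR peak at each of the 10 recurrent regions, by total signal (top) and by maximum signal (bottom); points are lists with a peak, triangles are TSA-treated, bars are medians. At 14.3 kb upstream of HBZ the median is 78.2 by total signal and 97.4 by maximum signal.

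HBZ, the embryonic gene, was the most often marked of the 5 genes. An H3K27ac peak overlapped its window in 23 of 25 lists and an H3K27me3 peak in 0 of 5. Peaks there were 506 to 3340 bp wide, with a median of 1065 bp. Their percentiles by total signal ran from 1.26 in ab4729 with column extraction at 13 cycles to 93.6 in Active Motif with column extraction at 11 cycles, with a median of 67.3. The highest points that fell in the recurrent region around the start, 23 points in 22 lists, lay at a median of 109.5 bp upstream of the start. These points ran from 202571 to 203962, around the start at 202854. In untreated ab4729 at 15 cycles the highest point of the HBZ peak lay outside that region, 1292 bp downstream of the start. Both lists without a peak at HBZ came from column extraction at 13 cycles, one with Active Motif and one with Diagenode.

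The adult alpha genes were marked less often. HBA1 held an H3K27ac peak in 12 of 25 lists and an H3K27me3 peak in 0 of 5. Its peaks were 781 to 3559 bp wide, at percentiles of 7.09 to 81.9 with a median of 51.8. One of the 12, in ab177178 with column extraction at 13 cycles, reached into the window from 227622 onward and covered 2.90% of it. HBA2 held a peak in 6 lists, 991 to 1859 bp wide, at percentiles of 14.9 to 75.5 with a median of 54.3, and an H3K27me3 peak in 0 of 5. The 6 lists with a peak at HBA2 also had one at HBA1. The genes lie 3.833 kb apart and are near-identical copies, and no source used here says how reads matching both were placed, which leaves the split of signal between them uncertain.

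HBM and HBQ1 were marked least. The HBM window was touched in 4 of 25 lists, all at 15 cycles. These were TSA-treated ab177178, with a peak of 411 bp at percentile 17.6, and untreated ab4729, Diagenode at 1/100 and Diagenode at 1/50, at 76.4, 49.9 and 48.9. Each of the 4 peaks covered 4.40% to 23.6% of the window and had its highest point 1053 to 1189.5 bp upstream of the HBM start. By maximum signal these upstream peaks reached percentiles of 68.0 with TSA-treated ab177178 and of 98.2, 93.8 and 75.2 in the same untreated order. The recurrent region at this place, chr16:213965-214869, held a peak in 7 lists, of which 4 were untreated and at 15 cycles, with a median percentile of 36.4 by total signal and 66.3 by maximum signal. In the GRCh38 gene order the pseudogene HBZP1 comes directly before HBM, and the region was not assigned to either. No source used here says how reads matching both HBZP1 and HBZ were placed. HBQ1 held a peak in 3 lists: 3055 bp at percentile 23.8 in untreated ab4729 at 15 cycles, and 961 bp at 52.5 with Active Motif and 1407 bp at 35.1 with Diagenode, both with SDS at 13 cycles. No H3K27me3 peak overlapped either window in the 5 lists.

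In order of lists marked, the positions ran HBZ (23), HS-40 (14), HBA1 (12), HBA2 (6), HBM (4) and HBQ1 (3). Of all 2 kb bins, 4.47% held an H3K27ac peak in at least 1 of the 25 lists. The share was 0.506% for at least 13 lists and 0.175% for at least 20. Shares at the counts of HBA1, HBA2, HBM and HBQ1 were not computed, so how far these exceed ordinary bins is not shown. In the SEACR lists the 14 with HS-40 were among the 23 with HBZ. The lead of HBZ over HS-40 depended on the rule: both had 13 lists when peaks had to cover 50% of the window, and by MACS2 HS-40 had 4 of 5 lists and HBZ 3. HS-40 and HBA1 were marked together in 9 lists. Of the 25 lists, 2 had none of the 6 windows marked, 4 had 1, 7 had 2, 6 had 3, 4 had 4, 2 had 5 and 0 had all 6. These counts rest on calls and not on signal at a fixed depth, and longer lists have more chances of a call.

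MACS2 lists were at hand for the 5 untreated H3K27ac libraries at 15 cycles. HS-40 was called in 4 of 5 lists, the exception being Diagenode at 1/100, and HBZ in 3, which were ab4729, Active Motif and Diagenode at 1/50. SEACR called HBZ in 5 of 5 of the same libraries. HBM was touched in 3 MACS2 lists, HBA2 and HBA1 were each called in 2, and HBQ1 in 1. The leading MACS2 peak of the locus was in 5 of 5 lists the one 14.3 kb upstream of HBZ. Its −log10 q-value was 320.3 for ab4729, 117.9 for Diagenode at 1/50, 62.5 for Diagenode at 1/100, 40.0 for ab177178 and 37.5 for Active Motif. In the ab4729 list it ranked 62 of 25765 peaks, and its summits in the 5 lists lay between 188441 and 188475. The next value in each list was lower, at 128.5 for ab4729, upstream of HBM, and at 29.6, 27.2, 17.3 and 12.3 in the other lists in the order just given.

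H3K27me3 peaks were scarce in the locus. Of all 2 kb bins, 12.5% held a SEACR H3K27me3 peak in at least 1 of 5 lists. A count of 0 of 5 at a single window is therefore the usual case and does not set these genes apart. The 1 SEACR peak, chr16:188537-189138, came from column extraction at 11 cycles, the library that stood apart. It ranked 69740 of 73663 peaks, a percentile of 5.33, and lay on the most recurrent H3K27ac region outside HBZ. It was the only SEACR H3K27me3 peak in the locus, so without that library the count is necessarily 0 of 4 lists. The MACS2 H3K27me3 list, made with SDS at 15 cycles, held 2 peaks with −log10 q-values of 3.61 and 1.92, at chr16:188404-188684 and, within the HBA1 window, chr16:226383-226849. A MACS2 H3K27me3 peak lay in 10.1% of 2 kb bins. Neither was in the SEACR list of the same library. In that SEACR list the span free of H3K27me3 peaks around the locus was 203.906 kb long, and in the list from SDS at 11 cycles it was 631.122 kb.

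The locus was compared between marks within each protocol, over the 4 H3K27ac antibodies with Diagenode at 1/50. With SDS extraction, mean H3K27ac coverage was 5.15% against 0% for H3K27me3 at 11 cycles. It was 4.90% against 0% at 13 cycles and 15.7% against 0% at 15 cycles. With column extraction, mean H3K27ac coverage was 6.80% against 0.523% for H3K27me3 at 11 cycles and 2.88% against 0% at 13 cycles. H3K27ac was higher in 5 of 5 protocols, by a mean of 6.99 ± 5.04 percentage points (SD, n = 5 protocols; exact two-sided sign-flip test, p = 0.0625, adjusted p = 0.3125 over 5 tests). A p of 0.0625 is the smallest that 5 protocols allow.

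With TSA the peaks in the locus and in the lists as a whole were narrower, and a smaller share of the locus was covered in 3 of 4 pairs. Coverage was 5.41% with TSA against 12.1% untreated for ab177178 and 11.1% against 29.6% for ab4729. With Diagenode it was 7.30% against 6.54% at 1/100 and 9.97% against 18.0% at 1/50. TSA lists averaged 8.44% ± 2.57 and untreated lists 16.6% ± 9.88 (SD, n = 4 each). The mean difference was -8.11 ± 7.95 percentage points (SD, n = 4 pairs; exact two-sided sign-flip test, p = 0.25, adjusted p = 0.417), where 4 pairs cannot give a p below 0.125. Median peak width in the locus was smaller with TSA in 4 of 4 pairs, at 618, 1080.5, 1018.5 and 1351 bp against 1562.5, 3055, 1077.5 and 2227 bp untreated, in the order above. Over the whole lists it was also smaller in 4 of 4 pairs, at 753, 922, 1145 and 1075 bp with TSA against 1393, 2736.5, 1339.5 and 2256 bp untreated.

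The lists as a whole also differed in covered length, and relative to it the locus stood higher with TSA in 3 of 4 pairs. Coverage of the locus over coverage of the list was 26.0-fold with TSA against 13.3-fold untreated for ab177178. With Diagenode it was 38.3-fold against 16.5-fold at 1/100 and 37.3-fold against 17.1-fold at 1/50. For ab4729 it was 13.3-fold with TSA against 20.8-fold untreated. As the share of a list's covered length that fell in the locus, the mean difference was 0.0445 ± 0.0508 percentage points (SD, n = 4 pairs; exact p = 0.25). Treatment and sequencing depth cannot be told apart at 15 cycles.

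At single positions the number of lists marked differed between TSA and untreated by at most 2. HS-40 was marked in 4 of 4 TSA lists and 3 of 4 untreated ones, with widths of 661, 1993, 1180 and 1877 bp against 2189 and 2904 bp, none and 2503 bp. Its percentiles were 69.5, 77.9, 65.3 and 89.2 with TSA, against 94.2 and 67.1, none and 62.6 untreated, in lists of different lengths. HBZ was marked in 4 of 4 on both sides. HBA2 was marked in 3 TSA lists against 1 untreated, HBA1 in 3 against 2, HBM in 1 against 3 and HBQ1 in 0 against 1. These counts of single lists have no replicate check.

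Column and SDS extraction gave no common direction in 8 pairs of downsampled H3K27ac lists. Column lists covered 4.84% ± 3.25 of the locus and SDS lists 5.02% ± 1.72 (SD, n = 8 each), a mean difference of -0.18 ± 4.50 percentage points (exact two-sided sign-flip test over 8 pairs, p = 0.898, adjusted p = 0.898). The sign of the difference was opposite at 13 and at 11 cycles for 4 of 4 antibodies. At 13 cycles column lists averaged 2.88% against 4.90% for SDS, a difference of -2.01 ± 3.58 (n = 4 pairs, exact p = 0.5). At 11 cycles they averaged 6.80% against 5.15%, a difference of 1.65 ± 5.04 (n = 4 pairs, exact p = 0.625). The change of the difference between cycle numbers was -3.67 ± 8.39 percentage points (n = 4 antibodies, exact p = 0.5), with ab177178 moving opposite to the other 3 antibodies.

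The 13-cycle lists covered 3.89% ± 2.00 of the locus and the 11-cycle lists 5.97% ± 2.66 (SD, n = 8 each). The mean difference was -2.08 ± 4.45 percentage points, lower at 13 cycles in 5 of 8 pairs (exact two-sided sign-flip test, p = 0.219, adjusted p = 0.417). Within column extraction it was -3.92 ± 4.88 (n = 4 pairs, exact p = 0.25), and within SDS -0.25 ± 3.67 (n = 4 pairs, exact p = 0.875).

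**Figure D4:**
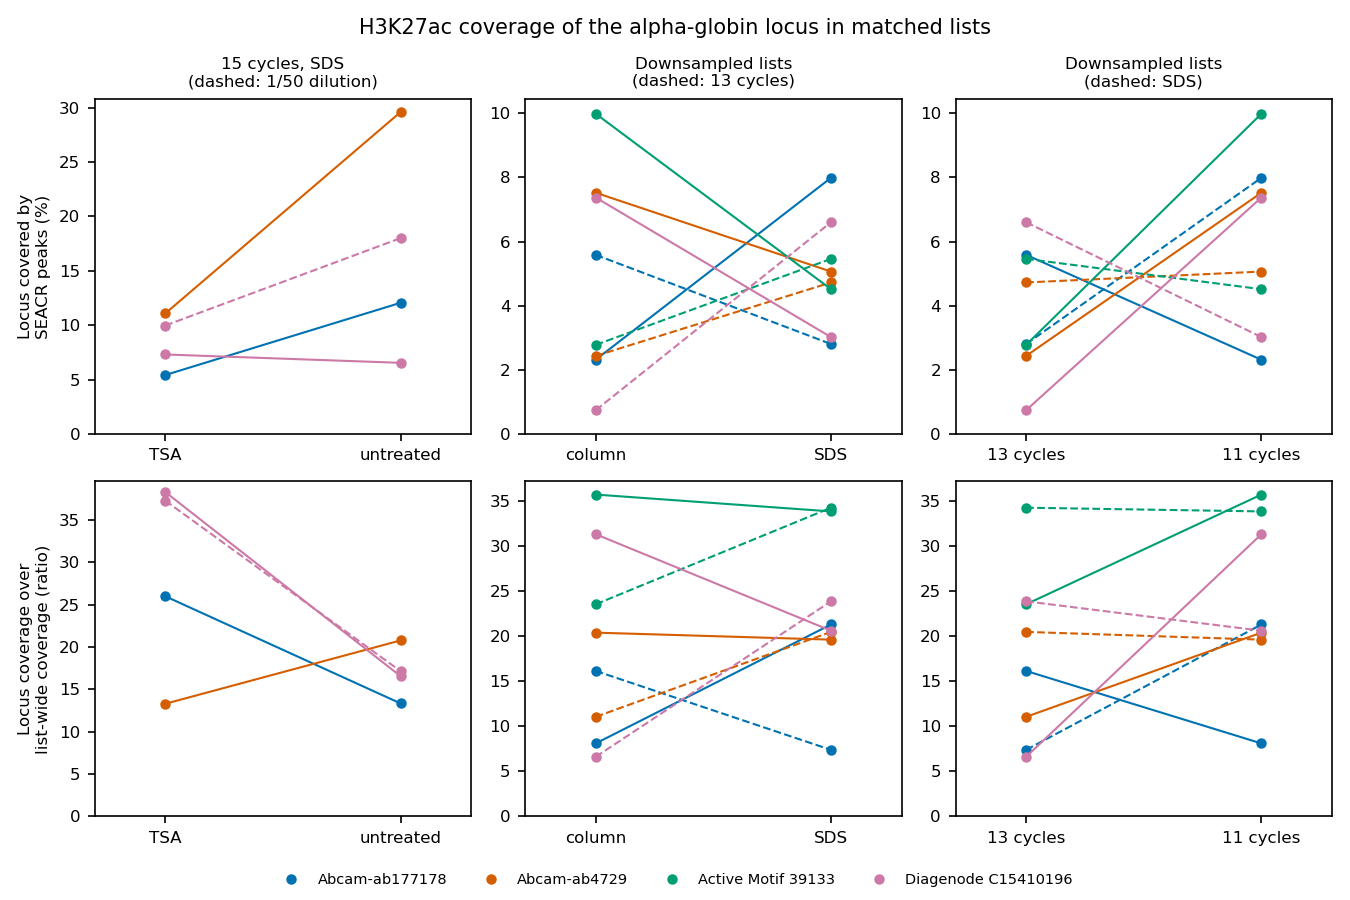
Paired lists joined by lines, coloured by antibody: share of the locus covered by H3K27ac SEACR peaks in percent (top) and that share over the list's own coverage as a ratio (bottom), for TSA against untreated, column against SDS and 13 against 11 cycles. Lines cross in each panel; TSA lists covered less in 3 of 4 pairs, while their ratio was higher in 3 of 4.

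Between H3K27ac antibodies the covered share of the locus overlapped broadly. Over 5 protocols it averaged 9.87% ± 11.2 for ab4729, 7.15% ± 6.64 for Diagenode, 6.15% ± 4.02 for ab177178 and 5.20% ± 2.87 for Active Motif (SD, n = 5 each). The range of these means was 4.67 percentage points. An exact permutation test of the variance of the means, with antibody permuted within protocol, gave p = 0.728 (adjusted p = 0.898). Without the 15-cycle lists the means were 4.94%, 4.43%, 4.67% and 5.68% in the same order.

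Relative to the list's own coverage, Active Motif stood above 2 of the other 3 antibodies. Active Motif lists covered the locus 23.5-fold to 35.7-fold above the list, with a median of 33.8-fold. The other antibodies had medians of 20.6-fold for Diagenode (6.61 to 31.3), 20.4-fold for ab4729 (11.0 to 20.8) and 13.3-fold for ab177178 (7.38 to 21.3). The 5 Active Motif values lay above the 5 of ab4729 and the 5 of ab177178, and overlapped those of Diagenode. As the share of the list's covered length that fell in the locus, the antibodies' means spanned 0.0702 percentage points, with Active Motif highest and ab177178 lowest (exact permutation test, p = 0.00217, not adjusted, 1 of several measures tried). With lists cut to equal size, the same exact permutation test on mean locus coverage gave p = 0.519. Active Motif lists held 3024 to 7191 peaks.

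By position, HS-40 was marked in 3 of 5 untreated ab177178 lists, 2 of 5 with ab4729, 2 of 5 with Active Motif and 3 of 6 with Diagenode, which includes the 1/100 library. HBZ was marked in 5 of 5, 5 of 5, 4 of 5 and 5 of 6 of the same lists. HBA1 was marked in 2, 4, 2 and 1 of them, and HBA2 in 1, 1, 0 and 1. The region 14.3 kb upstream of HBZ was marked in 5, 4, 4 and 6. These counts differ by 1 to 3 lists and were not tested.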

How the data were processed

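The labels name hg19, and the submitters' processing notes list, with no role or order, SEACR, MACS2, Bowtie2 2.2.9, SAMtools 1.3.1, Picard 2.6.0, bedtools 2.25.0, Trim Galore 0.6.6 and bcl2fastq. The authors called peaks per library, without duplicates per the labels. Each of the 30 deposited SEACR lists holds, per peak, the total signal and the highest signal within it. The 6 deposited MACS2 lists hold −log10 q-values and p-values beside a score and a fold (a ratio over background); the authors' −log10 q-value ranked their peaks here. SEACR's mode and threshold, and the read depths, are not given in the sources used.

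Peaks outside chromosomes 1 to 22 and X were dropped, which took away 1.01% to 5.82% of an H3K27ac list. A peak counted at a position if it shared at least 1 bp with the window. Total signal ranked peaks within a list. Locus coverage was compared between matched conditions by exact permutation tests with Benjamini-Hochberg adjustment over 5 tests. Pairs are conditions, not biological replicates, so p-values measure only the spread between these libraries, which may be technical. Background bins of 2 kb spanned 3035.04 Mb. The genes, positions and windows were chosen with earlier results of these data known. The rule for named genes was the 5 globin genes, NPRL3 and HS-40. Alternatives covered equal list sizes, other intervals, windows, measures and callers, and each antibody or protocol left out. The interval code was tested on simulated data against bedtools 2.31.1. Scripts ran on Python 3.11.15 with scipy 1.17.1, pandas 2.3.3, numpy 2.4.6 and matplotlib 3.10.9.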

Additional observations from a re-analysis of the deposited data

Results flagged for a closer look

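The TSA difference had opposite signs at the 2 dilutions of the Diagenode antibody, both at 15 cycles with SDS. Coverage of the locus was 7.30% with TSA and 6.54% untreated at 1/100, a difference of 0.77 percentage points, and 9.97% with TSA and 18.0% untreated at 1/50, a difference of -8.04. The differences lay 8.81 percentage points apart. Each dilution had 1 library per treatment, and the difference between dilutions was not tested.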

How the results depend on the processing

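No paired analysis by replicate number was possible because each condition has 1 library; the pairs tested are conditions matched by antibody and protocol. The TSA difference in coverage turned positive as a share of list length (0.0445), by windows marked (0.25) and by the percentile of the strongest peak (2.43). It ranged from -12.6 to -4.64 with antibodies left out. The column minus SDS difference turned positive at equal list size (0.140) and without ab177178 (0.242) or Diagenode (0.0112), with a range of -0.71 to 0.242 over antibodies left out. The 13 minus 11 cycle difference passed the threshold by the percentile of the strongest peak (-12.9, exact sign-flip p = 0.0234) and ranged from -2.46 to -1.73 with antibodies left out; such percentiles come from lists of different lengths and show no change by themselves. The test between antibodies passed it as a share of list length (range of means 0.0702, exact permutation p = 0.00217). The range of mean coverage spanned 1.25 to 6.45 with an antibody or protocol left out. The difference between marks spanned 4.80 to 8.01 with an antibody or protocol left out, and was 3.24 at equal list size. In the other 51 settings the 5 tests kept their side of the threshold, and the 4 paired differences their direction. The range between antibodies has no direction: Active Motif, lowest by coverage, was highest at equal list size, by the strongest peak's percentile and without the 15-cycle protocol.

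With the strongest 3000 peaks of each list, lists marked fell to 7 at HS-40, 13 at HBZ, 0 at HBM, 3 at HBA2, 4 at HBA1 and 1 at HBQ1. Requiring a window covered to 50% left 13 at HBZ, 13 at HS-40 and 0 at HBM. With windows of 500 bp on each side HBM had 0, and with 2 kb HBM had 7 and HBQ1 5. By MACS2 in 5 libraries, HBZ had 3 against 5 by SEACR, and HBA2 2 against 1. By maximum signal the median percentile was 84.5 at HBM against 49.4, and 15.2 at HBQ1 against 35.1. Without the column library at 11 cycles, 0 of 4 H3K27me3 lists had a peak in the locus, against 1 of 5. This follows from that library holding the only such peak. Other cut-offs for recurrence, chosen after seeing the data, gave 12 regions at 3 lists and 7 at 8 lists or in the 16 downsampled lists, against 10. The cause of these shifts was not tested. Read depth is unknown, so uncalled windows may hold signal under the callers' thresholds.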
